A study of Mus musculus with 9 samples.

Results

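The genes described here are 45 genes of mitosis and the spindle, measured in mouse liver under a high-fat diet with or without APS. They were chosen by name, as the probes whose gene name on the array was 1 of the 45, and all 45 were found, by 77 probes, among the 27339 genes on the array. Total RNA came from livers of male C57bl/6J mice aged 16 weeks, in 3 groups of 3. The HFD+APS mice ate a high-fat diet (60 kcal% fat) with 40 g of APS mixed into each kg of the diet, the HFD mice ate the same high-fat diet alone, and the chow mice ate chow, each for 12 weeks. The labels do not spell out APS. The 9 livers were picked from 24 mice by HE staining and TG measurement, so p-values describe the spread between selected livers. Whole liver was used, and in such tissue more dividing cells and more RNA per dividing cell cannot be told apart.

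A cell enters mitosis when cyclin B binds the kinase Cdk1, and the kinases of the Plk and Aurora families then drive chromosome condensation and build the spindle. Kinetochores tie chromosomes to spindle microtubules, the checkpoint holds the cell until all are attached, and the anaphase-promoting complex with Cdc20 then marks securin and the cyclins for destruction so that sister chromatids part and the cell divides. Hepatocytes of the adult liver are mostly resting and re-enter the cycle after injury or loss of tissue. Transcripts of these genes peak in G2 and mitosis, under the control of the MuvB complex, which binds a promoter element known as CHR, and of NF-Y, which binds CCAAT boxes.

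The promoter windows of 6 members are shown because these genes were among those whose signal differed most between the diets, with and without the G2 and mitosis elements. The windows run from 250 bases before to 50 bases after the gene's start in RefSeq (build GRCm38.p6) and are written 5′ to 3′ on the gene's own strand. They lie at chr4:118437294-118437593 (minus strand, Cdc20), chr7:80294201-80294500 (plus strand, Prc1), chr14:46760291-46760590 (plus strand, Cdkn3), chr7:122159185-122159484 (plus strand, Plk1), chr3:135212313-135212612 (plus strand, Cenpe) and chr4:44300667-44300966 (plus strand, Melk). Capitals mark TTTGAA, the commonest CHR letters, and CCAAT, on either strand (TTCAAA and ATTGG are their reverse complements).
Cdc20: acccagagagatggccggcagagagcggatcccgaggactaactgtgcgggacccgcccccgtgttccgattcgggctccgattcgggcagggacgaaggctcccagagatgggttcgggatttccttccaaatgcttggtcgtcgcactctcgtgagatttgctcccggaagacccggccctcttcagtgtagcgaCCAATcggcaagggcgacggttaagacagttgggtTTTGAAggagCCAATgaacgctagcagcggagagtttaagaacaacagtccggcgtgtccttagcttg
Prc1: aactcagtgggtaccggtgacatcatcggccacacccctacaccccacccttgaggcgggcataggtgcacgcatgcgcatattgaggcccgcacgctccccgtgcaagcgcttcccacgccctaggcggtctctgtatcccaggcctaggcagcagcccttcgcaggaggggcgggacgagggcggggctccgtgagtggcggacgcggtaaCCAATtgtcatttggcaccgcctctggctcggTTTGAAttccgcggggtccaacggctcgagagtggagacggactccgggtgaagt
Cdkn3: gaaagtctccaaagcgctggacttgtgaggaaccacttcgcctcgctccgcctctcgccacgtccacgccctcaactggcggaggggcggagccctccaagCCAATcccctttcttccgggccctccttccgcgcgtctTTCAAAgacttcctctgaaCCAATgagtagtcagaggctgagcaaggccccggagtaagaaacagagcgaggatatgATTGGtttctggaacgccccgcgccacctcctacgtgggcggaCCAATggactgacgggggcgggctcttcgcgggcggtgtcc
Plk1: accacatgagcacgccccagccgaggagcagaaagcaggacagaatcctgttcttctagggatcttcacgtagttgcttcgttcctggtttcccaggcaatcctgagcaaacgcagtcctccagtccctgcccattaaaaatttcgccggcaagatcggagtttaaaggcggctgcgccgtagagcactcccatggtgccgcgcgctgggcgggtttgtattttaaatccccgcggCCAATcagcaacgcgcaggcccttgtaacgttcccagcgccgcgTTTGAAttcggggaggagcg
Cenpe: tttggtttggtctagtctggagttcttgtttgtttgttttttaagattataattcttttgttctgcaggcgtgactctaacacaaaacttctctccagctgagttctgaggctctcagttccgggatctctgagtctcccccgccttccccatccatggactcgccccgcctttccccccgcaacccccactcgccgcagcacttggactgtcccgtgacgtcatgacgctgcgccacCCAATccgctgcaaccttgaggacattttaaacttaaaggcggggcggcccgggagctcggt
Melk: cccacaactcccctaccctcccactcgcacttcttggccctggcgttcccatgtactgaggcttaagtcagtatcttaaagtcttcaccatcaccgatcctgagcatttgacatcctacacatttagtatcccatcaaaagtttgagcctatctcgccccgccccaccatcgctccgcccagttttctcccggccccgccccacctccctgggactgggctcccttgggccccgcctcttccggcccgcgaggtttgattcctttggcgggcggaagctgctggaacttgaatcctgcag
In the Cdc20 window the first base of TTTGAA lies at -18 from the start and CCAAT lies at -53 and -8, with the first base of the transcript counted as 1. Prc1 has TTTGAA at -5 and CCAAT at -37, and Plk1 has them at 31 and -14. Cdkn3 has TTTGAA on the other strand at -111 and 4 CCAAT letters, Cenpe has CCAAT at -12 and no TTTGAA, and the Melk window holds neither.

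RefSeq held 39 such windows for 37 members. TTTGAA was present in 29 of the 39 (74.4%), against 17.9% of 32851 windows of all genes. Its variant TTCGAA stood in 3 (7.69%), against 1.56% of all windows. CCAAT stood in 30 (76.9%), against 37.4%, and 27 windows (69.2%) held CCAAT with either CHR spelling, against 7.52% of all. Of the 19 windows of members whose signal was called higher in HFD than in chow, 73.7% held TTTGAA and 78.9% CCAAT, and of the 20 windows of the remaining members, which include untested ones, 75% held each. The difference between the 2 sets was not tested. A match is only a run of letters, and short motifs occur by chance.

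Values are log2 of the processed signal of a probe minus the array's 75th percentile, so 0 marks the 75th percentile, and a value higher by 1 is a doubling. A gene was tested if a probe was well above background on at least 3 of the 9 arrays, and it was called when limma's p, adjusted by Benjamini and Hochberg's method over all 17633 features of 1 fit, was under 0.05. The arrays lay on 3 slides, scanned one slide at a time: slide 2 held the 3 HFD arrays and HFD+APS 1, slide 3 held HFD+APS 2 and 3, and slide 1 held the 3 chow arrays. Slide and diet therefore cannot be told apart for HFD against chow, while HFD+APS 1 against HFD is a comparison within slide 2. Slide 2 had the higher background. The signal of negative controls was 5.07 to 6.5 there and 2.62 to 3.19 on the other slides, and 10648 probes above background on 0 arrays had a median log2 difference of 0.51 in HFD against chow and of -0.65 in HFD+APS against HFD. For HFD+APS 1 alone against HFD that median was -0.11. Over 19350 probes above background on all 9 arrays the medians were -0.02 and 0.02. The hepatocyte markers were present on every array, and all 7 on the array were above background throughout.

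Of the 45 members, 36 were tested and 21 of these were above background on all 9 arrays. The other 9 members (Ccnb1, Cdk1, Aurkb, Bub1b, Ttk, Cenpf, Kif23, Ndc80 and Nuf2) were too dim to test. Among the 36, Melk, Tpx2, Top2a and Kif4 passed the filter only because HFD arrays counted towards it, so a count over the 36 leans towards HFD. Racgap1, Anln and Kif2c passed only because chow arrays counted, and Racgap1 was above background on the 3 chow arrays alone. Melk, Tpx2, Kif11 and Kif2c also needed the HFD+APS arrays to pass.

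In HFD livers 22 of the 36 tested members rose and 1 fell relative to chow, where 4.55% of all 17633 features were called higher and 6.39% lower. The largest difference was that of Cdc20, the activator of the anaphase-promoting complex, which was 9.02-fold higher, and Ccna2, Ccnb2, Plk1, Aurka, Birc5, Cdca8, Incenp, Prc1, Kif20a and Mki67 rose with it. The median log2 difference of the 36 was 1.19, against -0.04 for all features. Between HFD and chow, 23 members had groups that did not overlap with HFD higher and 2 with HFD lower, where 16.6% and 22.3% of all features did so. In a fit over the 13234 features above background on all 9 arrays, 16 of 21 members were called higher and 0 lower, where 7.1% of those features were called higher and 7.22% lower. At an unadjusted p under 0.05 in the fit over 17633 features, 24 of the 36 members were higher and 3 lower by limma, where 13.2% and 18.2% of all features were. Leaving out the 4 members that passed only because HFD arrays counted, 19 of 32 were called higher, and the 1 fall, that of Racgap1, belongs to a gene that passed only through chow arrays. The count of calls was 13 without chow 2, and 13 of the 22 rises held whichever single array was left out. The smallest response among HFD livers was that of HFD 1, the lowest HFD array for 20 of the 22 genes.

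**Figure D1:**
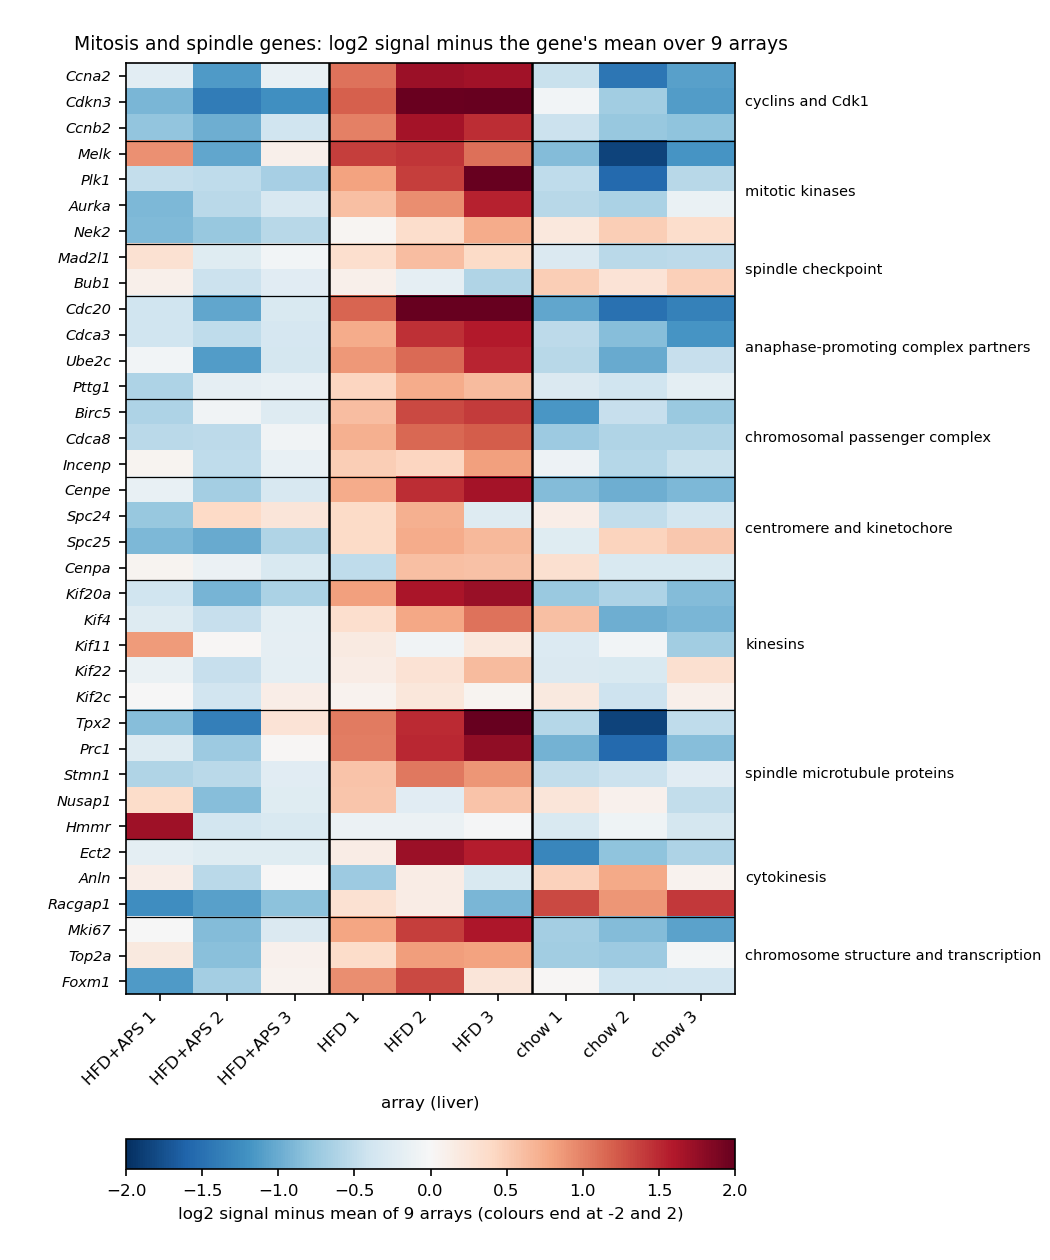
Log2 signal of the 36 tested members (rows, grouped by role) on the 9 arrays (columns: HFD+APS, HFD, chow), each minus the gene's mean over the 9 arrays; red is above and blue below that mean. The HFD columns are red for most genes, HFD 1 paler than HFD 2 and HFD 3, while Racgap1 and Bub1 are red in chow and Hmmr is red in HFD+APS 1.

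All 3 tested genes of the cyclin and Cdk1 group rose in HFD. Ccnb2, a B-type cyclin that activates Cdk1, was at 0.71, 1.37 and 1.18 in HFD livers and at -0.72, -1.05 and -1.10 in chow livers (log2 difference 2.04 ± 0.21 SE, adjusted p = 0.00375). Ccna2, the A-type cyclin of S phase and G2, was at -1.59, -0.97 and -1 in HFD and at -3.12, -4.12 and -3.77 in chow (2.48 ± 0.34, adjusted p = 0.00943). Cdkn3, a phosphatase that acts on cyclin-dependent kinases, was at -0.57, 0.22 and 0.49 in HFD and at -1.82, -2.45 and -2.88 in chow (2.43 ± 0.33, adjusted p = 0.00917). For each of the 3 genes the lowest HFD liver stood above the highest chow liver, so the groups did not overlap. The probes of these genes lie on chromosome 9 at 70255671 to 70255730 (Ccnb2), chromosome 3 at 36463978 to 36464037 (Ccna2) and chromosome 14 at 47389608 to 47391131 (Cdkn3) in the mm9 positions of the array files. Whether they fall in exons, introns or UTRs was not determined.

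For Ccnb1 and Cdk1, the central cyclin and kinase of mitosis, the probe read was above background on 2 HFD arrays (Ccnb1) and 1 HFD array (Cdk1) and on no other array. The most often detected of the 3 Ccnb1 probes read -4.82, -0.78 and -2.73 in HFD and -5.97, -6.29 and -6.41 in chow. HFD 1 was thus far below the other HFD livers and below background. With the chow values raised to the detection floor of their array, the HFD mean of Ccnb1, HFD 1 as measured included, was at least 2.73-fold higher. The Cdk1 probe read -3.71, -3.73 and -2.92 in HFD and -5.31, -5.10 and -5.52 in chow, while another Cdk1 probe, above background on chow 1 alone, differed by 0.31. Neither gene was tested.

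Of the mitotic kinases, 3 of 4 rose. Plk1, the polo-like kinase needed from mitotic entry to cytokinesis, was at -1.60, -1.02 and -0.35 in HFD and at -2.91, -3.97 and -2.96 in chow (2.29 ± 0.36, adjusted p = 0.0126). Aurka, the Aurora kinase of the centrosomes, was at -1.26, -0.93 and -0.32 in HFD and at -2.41, -2.50 and -1.99 in chow (1.46 ± 0.26, adjusted p = 0.0178, but 0.0671 without chow 2). Every HFD liver exceeded every chow liver for both. Melk, a kinase of proliferating cells, passed the filter only because HFD arrays counted. It was above background on 2 HFD arrays, 1 HFD+APS array and no chow array. The Melk probe read -3.13, -3.07 and -3.40 in HFD and -5.37, -6.35 and -5.68 in chow. It was at least 2.03-fold higher in HFD (adjusted p = 0.0171, and 0.0642 at most when 1 array was left out). Nek2, a kinase that separates centrosomes, did not follow the other kinases, with -2.49 ± 0.35 in HFD and -2.52 ± 0.13 in chow (SD, n = 3 each, adjusted p = 0.934 by limma, 95% interval of the log2 difference -0.40 to 0.45).

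The partners of the anaphase-promoting complex all rose, 4 of 4. Cdc20 was at -0.49, 0.42 and 0.74 in HFD and at -2.70, -3.14 and -3.01 in chow (3.17 ± 0.33, adjusted p = 0.00367). Its probe lies on chromosome 4 at 118105536 to 118105595 (mm9). Ube2c, the ubiquitin-conjugating enzyme that works with the complex, was at -1.57, -1.30 and -0.92 in HFD and at -2.99, -3.45 and -2.90 in chow (1.85 ± 0.29, adjusted p = 0.0129, but 0.0516 without chow 2). The gaps between the HFD and chow livers of Cdc20 and Ube2c were wider than the spread within either group. Cdca3, an adaptor that triggers mitotic entry, was at -0.48, 0.24 and 0.37 in HFD and at -1.75, -2.08 and -2.40 in chow (2.12 ± 0.24, adjusted p = 0.0052). Pttg1, which encodes securin, the inhibitor of separase, was at 2.70, 3.02 and 2.91 in HFD and at 1.99, 1.87 and 2.08 in chow (0.90 ± 0.15, adjusted p = 0.0156, but 0.0612 without chow 2). The rise of Pttg1 was the smaller one, and its HFD and chow livers still did not overlap.

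All 3 tested members of the chromosomal passenger complex, which corrects faulty attachments and guides cytokinesis, rose. Birc5, which encodes survivin, was at 1.14, 1.84 and 1.92 in HFD and at -0.64, 0.06 and -0.21 in chow (1.9 ± 0.26, adjusted p = 0.00943). Cdca8, which encodes borealin, was at -0.69, -0.24 and -0.19 in HFD and at -2.12, -1.99 and -1.99 in chow (1.66 ± 0.18, adjusted p = 0.00429). Incenp, the scaffold of the complex, was at 0.25, 0.19 and 0.58 in HFD and at -0.34, -0.80 and -0.68 in chow (0.95 ± 0.19, adjusted p = 0.0234, and 0.0802 at most when chow 2, chow 3 or HFD 3 was left out). None of the 3 genes overlapped between the HFD and chow livers. Aurkb, the kinase of the complex, was above background on 1 HFD+APS array, 0 HFD arrays and 1 chow array and was not tested.

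At centromeres and kinetochores the picture was mixed, with 1 of 4 tested members called. Cenpe, a kinesin of the kinetochore, was at -1.93, -1.20 and -1.02 in HFD and at -3.54, -3.66 and -3.57 in chow (2.21 ± 0.24, adjusted p = 0.00429). Its chow livers lay close together, and all HFD livers stood above them. Spc24 and Spc25, subunits of the Ndc80 complex that binds microtubules, differed by 0.52 (95% interval -0.30 to 1.34) and 0.34 (-0.17 to 0.85), and the centromeric histone Cenpa by 0.33 (-0.39 to 1.05). The probes read for Cenpf and Nuf2, both of the kinetochore, were each above background on 2 HFD arrays and on no other array. That of Cenpf was at -3.06, -2.11 and -2.01 in HFD and at -6.11, -5.71 and -4.63 in chow, at least 3.55-fold higher, and Nuf2 was at least 2.31-fold higher, with no test for either. Ndc80 was nowhere above background.

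Among the spindle proteins and kinesins, 4 of 10 tested members rose. Prc1, which bundles microtubules at the midzone, was at -0.92, -0.45 and -0.18 in HFD and at -2.90, -3.50 and -2.80 in chow (2.55 ± 0.28, adjusted p = 0.00429). Kif20a, a kinesin of the midzone, was at -0.96, -0.14 and -0.06 in HFD and at -2.52, -2.39 and -2.64 in chow (2.13 ± 0.25, adjusted p = 0.00521). Both genes had chow livers far below every HFD liver. Stmn1, which encodes stathmin, a protein that destabilises microtubules and is not confined to mitosis, was at 2.67, 3.15 and 2.99 in HFD and at 1.61, 1.68 and 1.88 in chow (1.21 ± 0.16, adjusted p = 0.00838). Tpx2, the activator of Aurka on the spindle, passed the filter only because HFD arrays counted. It was above background on 2 HFD arrays, 1 HFD+APS array and no chow array, with -3.36, -2.90 and -2.08 in HFD and -4.96, -6.24 and -4.90 in chow. It was at least 2.72-fold higher in HFD (adjusted p = 0.025, and 0.0778 at most when 1 array was left out). Kif4, a kinesin bound to chromosomes, differed by 1.17 ± 0.40 (adjusted p = 0.0933), with chow 1 at -3.35 inside the HFD range, and Kif22, another chromosome-bound kinesin, by 0.45 ± 0.20 (adjusted p = 0.175). Hmmr, Nusap1, Kif11 and Kif2c differed by 0.15 to 0.45. Kif23, the kinesin of centralspindlin, was above background on 1 HFD+APS array, 0 HFD arrays and 1 chow array and was not tested.

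Of the 3 tested members of cytokinesis 1 rose and 1 fell. Ect2, the exchange factor that switches on RhoA at the cell equator, was at -2.75, -1.19 and -1.33 in HFD and at -4.21, -3.71 and -3.51 in chow (2.05 ± 0.38, adjusted p = 0.0197, but 0.0657 at most when 1 array was left out). Racgap1, a subunit of the centralspindlin complex, was at -3.94, -4.10 and -5.15 in HFD and at -2.92, -3.36 and -2.83 in chow. No HFD array read it above background, so its level there is only bounded, and it was at least 1.28-fold lower in HFD (adjusted p = 0.0331, but 0.0937 at most when 1 array was left out). A further Racgap1 probe, above background on 0 arrays, went the other way by 1.28. Anln, the anillin of the contractile ring, differed by -0.73 ± 0.28 (adjusted p = 0.121) and was above background on the 3 chow arrays and 0 HFD arrays.

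Mki67, whose protein coats mitotic chromosomes and marks cycling cells, was at -0.25, 0.34 and 0.58 in HFD and at -1.72, -1.91 and -2.11 in chow (2.14 ± 0.27, adjusted p = 0.00686). Top2a, the topoisomerase that untangles sister chromatids, was at -3.52, -3.04 and -3.07 in HFD and at -4.57, -4.61 and -3.92 in chow (1.16 ± 0.31, adjusted p = 0.0499, of the members' calls the closest to the threshold). Its call was lost in 7 of the 9 fits that left out an array, whereas that of Mki67 was kept in all. Foxm1, a transcription factor of G2 and mitosis genes, was at -2.48, -2.08 and -3.17 in HFD and at -3.39, -3.81 and -3.79 in chow (1.09 ± 0.35, adjusted p = 0.0816). Its HFD and chow livers did not overlap. In the spindle checkpoint Mad2l1, which inhibits Cdc20 until chromosomes are attached, was at -2.73, -2.46 and -2.68 in HFD and at -3.36, -3.61 and -3.59 in chow (0.90 ± 0.16, adjusted p = 0.0171, and 0.0644 at most when 1 array was left out). Bub1, a kinase of the same checkpoint, differed by -0.64 ± 0.20 (adjusted p = 0.074) by its bright probe, and its other probe, above background on 0 arrays, differed by 1.44. Bub1b and Ttk, further checkpoint kinases, were nowhere above background.

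**Figure D2:**
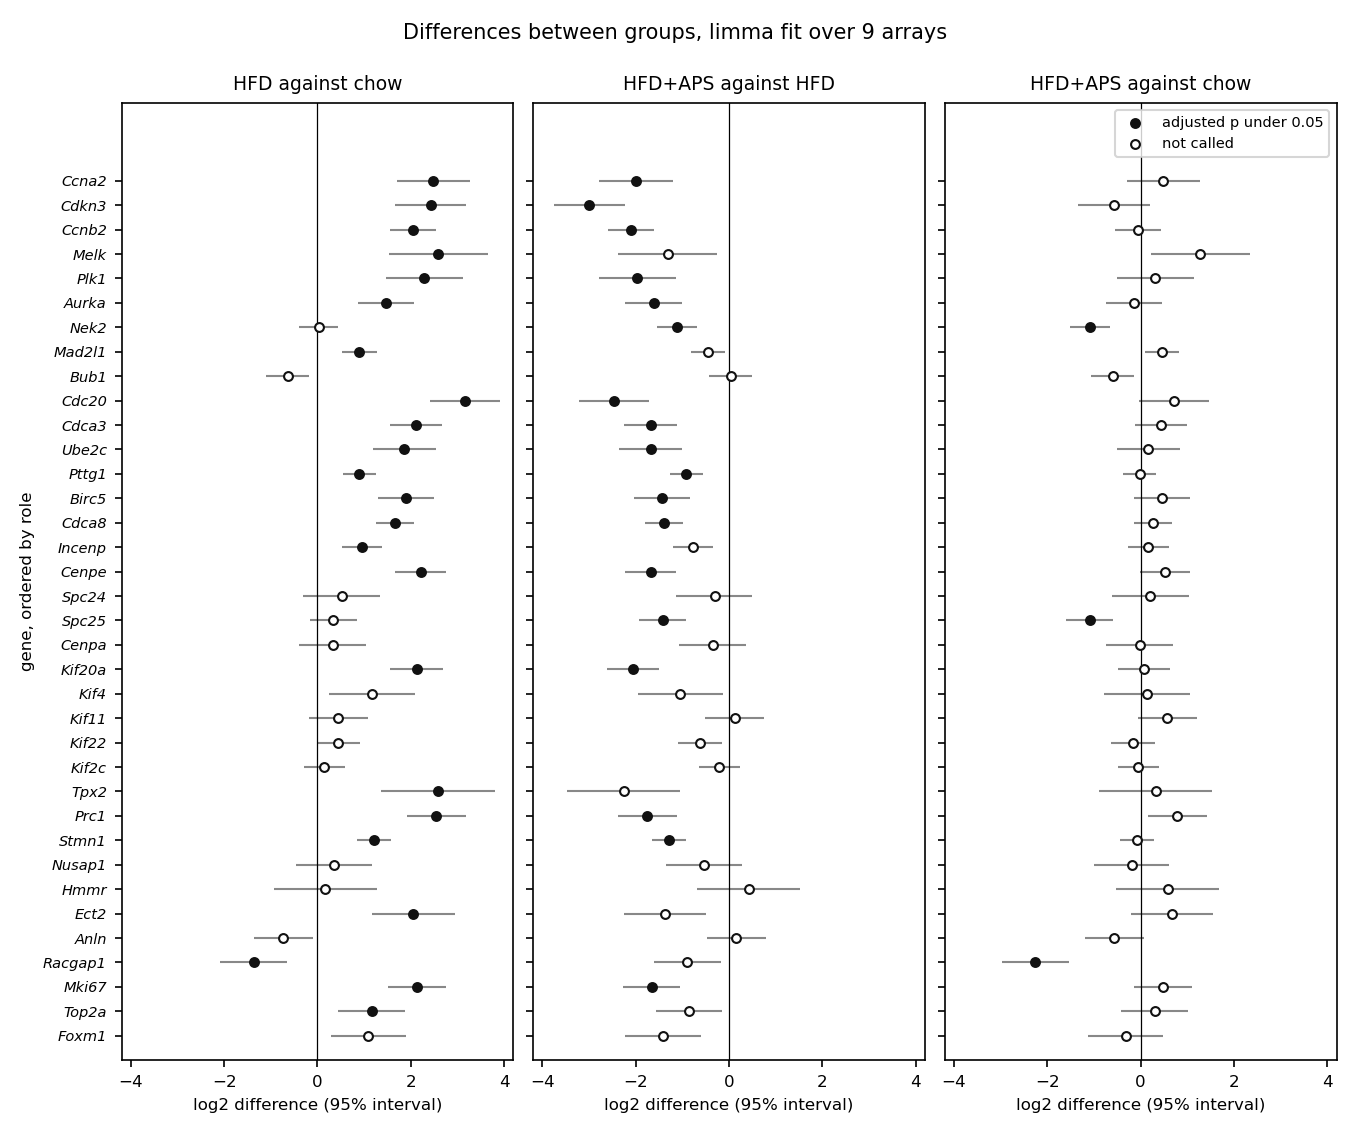
Log2 differences with 95% intervals of the 36 tested members (rows, ordered by role) in the 3 comparisons; filled points had an adjusted p under 0.05. Most points lie right of 0 in HFD against chow and left of 0 in HFD+APS against HFD, and around 0 in HFD+APS against chow, where Racgap1, Nek2 and Spc25 are filled on the left.

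When APS was mixed into the high-fat diet, 18 of the 36 tested members fell and 0 rose relative to HFD alone, where 1.03% of all features were called lower and 0.476% higher. Among the called members Cdkn3, Cdc20, Ccnb2 and Kif20a had the largest differences, at 0.126, 0.181, 0.233 and 0.241 of the HFD level. The median difference of the 36 was -1.35, against 0.001 for all features. For 27 members every HFD+APS liver was below every HFD liver, and for 0 the reverse, where 11.8% and 12.6% of all features did so. This comparison shares the HFD livers with the comparison above, so the results are not independent, and each is given by its own values. Single arrays moved the count of calls strongly, to 2 without HFD+APS 2, 4 without HFD+APS 3, 6 without HFD 2 or without HFD 3, and 9 to 11 without a chow array. Ccnb2 and Cdkn3 were called in all 9 of these fits. At an unadjusted p under 0.05, 28 of the 36 were lower and 0 higher by limma, where 9.49% and 8.38% of all features were. Melk, Tpx2, Top2a and Kif4, which passed the filter only because HFD arrays counted, are among the 27 and the 28. These 2 counts therefore lean towards genes high in HFD. None of these genes is among the 18 called.

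Cdkn3 was at -2.68, -3.16 and -2.99 in HFD+APS livers, against -0.57, 0.22 and 0.49 in HFD livers (-2.99 ± 0.33, adjusted p = 0.0109). Ccnb2 was at -1.09, -1.27 and -0.70 in HFD+APS and averaged 1.09 ± 0.33 in HFD (-2.10 ± 0.21, adjusted p = 0.00907). Ccna2 was at -2.89, -3.81 and -2.83 in HFD+APS and averaged -1.19 ± 0.35 in HFD (-1.99 ± 0.34, adjusted p = 0.0364). For all 3 the HFD+APS livers lay below the HFD livers with no overlap, and the call of Ccna2 was lost in 7 of the 9 fits without 1 array. Ccnb1, untested, was at -4.05, -6.84 and -6.74 in HFD+APS and above background on none of these arrays, and the HFD mean was at least 2.62-fold higher. Nuf2, also untested, was at least 2.14-fold higher in HFD than in HFD+APS. The Cenpf probe read -5.16, -4.34 and -4.10 in HFD+APS, while another was at -0.26 in HFD+APS 1, where it was above background, and at -5.63 and -5.22 in HFD+APS 2 and 3, beside -5.32, -4.65 and -3.78 in HFD.

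Among kinases, Plk1 was at -2.88, -2.92 and -3.07 in HFD+APS and averaged -0.99 ± 0.63 in HFD (-1.97 ± 0.36, adjusted p = 0.0432). Aurka was at -2.76, -2.40 and -2.18 in HFD+APS and averaged -0.83 ± 0.48 in HFD (-1.61 ± 0.26, adjusted p = 0.0314). Nek2 was at -3.76, -3.64 and -3.43 in HFD+APS and averaged -2.49 ± 0.35 in HFD (-1.11 ± 0.18, adjusted p = 0.0328). The HFD+APS livers lay close together for these kinases and did not reach the HFD range. Each of these 3 calls was lost in 7 of the 9 fits that left out 1 array. Melk was not called (-1.31 ± 0.46, adjusted p = 0.193), with HFD+APS 1 at -3.59, HFD+APS 2 at -5.55 and HFD+APS 3 at -4.41.

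All 4 partners of the anaphase-promoting complex fell. Cdc20 was at -2.06, -2.69 and -1.96 in HFD+APS and averaged 0.22 ± 0.64 in HFD (-2.46 ± 0.33, adjusted p = 0.018). Cdca3 was at -1.62, -1.73 and -1.56 in HFD+APS and averaged 0.04 ± 0.46 in HFD (-1.68 ± 0.24, adjusted p = 0.0226). Both lay wholly below the HFD livers. Ube2c was at -2.49, -3.55 and -2.79 in HFD+APS and averaged -1.26 ± 0.32 in HFD (-1.68 ± 0.29, adjusted p = 0.0377). Pttg1 was at 1.66, 2.09 and 2.13 in HFD+APS and averaged 2.88 ± 0.16 in HFD (-0.92 ± 0.15, adjusted p = 0.0345). The calls of Ube2c and Pttg1 were each kept in 1 of the 9 fits without 1 array.

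Birc5 averaged 0.21 ± 0.28 in HFD+APS and 1.64 ± 0.43 in HFD (-1.43 ± 0.26, adjusted p = 0.0439), and Cdca8 averaged -1.78 ± 0.27 in HFD+APS and -0.37 ± 0.28 in HFD (-1.40 ± 0.18, adjusted p = 0.0168). Incenp, the scaffold they bind, differed by -0.78 ± 0.19 and was not called (adjusted p = 0.0861). The Cdca8 call was lost only without HFD+APS 2, and that of Birc5 in 8 of the 9 fits. Cenpe averaged -3.06 ± 0.28 in HFD+APS and -1.38 ± 0.48 in HFD (-1.68 ± 0.24, adjusted p = 0.022). Spc25 was at -1.51, -1.62 and -1.20 in HFD+APS and at -0.22, 0.14 and 0.04 in HFD (-1.42 ± 0.22, adjusted p = 0.0294). These kinetochore genes did not overlap between the groups, whereas Spc24, the partner of Spc25 in its complex, did (-0.31, 95% interval -1.13 to 0.50).

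Kif20a was at -2.18, -2.71 and -2.42 in HFD+APS and averaged -0.39 ± 0.50 in HFD (-2.05 ± 0.25, adjusted p = 0.0134). Prc1 was at -2.21, -2.67 and -1.93 in HFD+APS and averaged -0.52 ± 0.38 in HFD (-1.75 ± 0.28, adjusted p = 0.0299). Stmn1 was at 1.5, 1.56 and 1.88 in HFD+APS and averaged 2.94 ± 0.25 in HFD (-1.29 ± 0.16, adjusted p = 0.0158). All 3 lay below the HFD livers without overlap, as did Mki67, at -1.05, -1.91 and -1.33 in HFD+APS and 0.22 ± 0.42 in HFD (-1.65 ± 0.27, adjusted p = 0.0311). The Mki67 call was kept in 2 of the 9 fits and the Stmn1 call in 8. Tpx2 (-2.26 ± 0.53, adjusted p = 0.0803), Foxm1 (-1.41 ± 0.35, adjusted p = 0.0944) and Ect2 (-1.38 ± 0.38, adjusted p = 0.124) did not pass by limma, though their groups did not overlap. Bub1, Kif11, Anln and Hmmr, the 4 members with a difference above 0, differed by 0.04 to 0.42 and overlapped.

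Within slide 2, where HFD+APS 1 and the HFD livers were hybridised together, all 18 called members stood lower in HFD+APS 1 than the HFD mean, by -2.73 (Cdkn3) to -1.22 (Pttg1). Of the 36 tested members 31 were lower there. With slide as a fixed block, which makes the comparison rest on these 4 arrays, 4 members stayed called lower. They were Pttg1 (adjusted p = 0.0266), Ccnb2 (0.0318), Cdca8 (0.0396) and Stmn1 (0.0396). In the same fit 1 member, Hmmr, a microtubule-binding protein and hyaluronan receptor, was higher in HFD+APS (1.77, adjusted p = 0.00664). Hmmr was at -1.15 in HFD+APS 1, -3.20 in HFD+APS 2 and -3.15 in HFD+APS 3, against -2.96, -2.95 and -2.86 in HFD, so its difference was that of 1 liver.

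**Figure D3:**
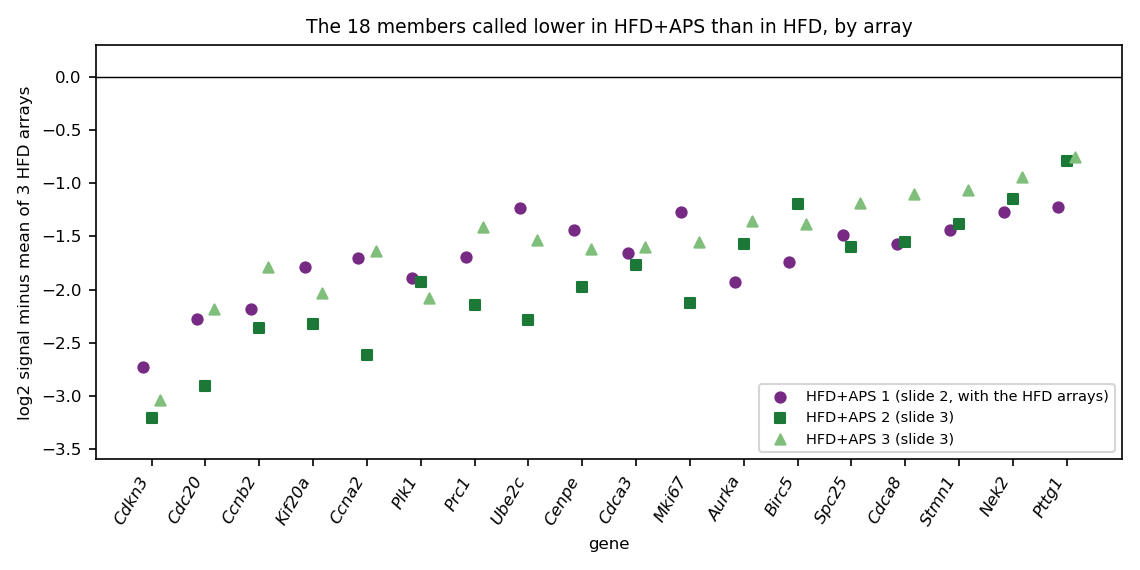
Log2 signal of each HFD+APS array minus the mean of the 3 HFD arrays, for the 18 members called lower in HFD+APS (x axis, ordered by their mean). Every point lies below 0. HFD+APS 1, which shared slide 2 with the HFD arrays, lies between the arrays of slide 3 for some genes (Cdc20), above both for others (Ube2c) and below both for others (Pttg1).

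**Figure D4:**
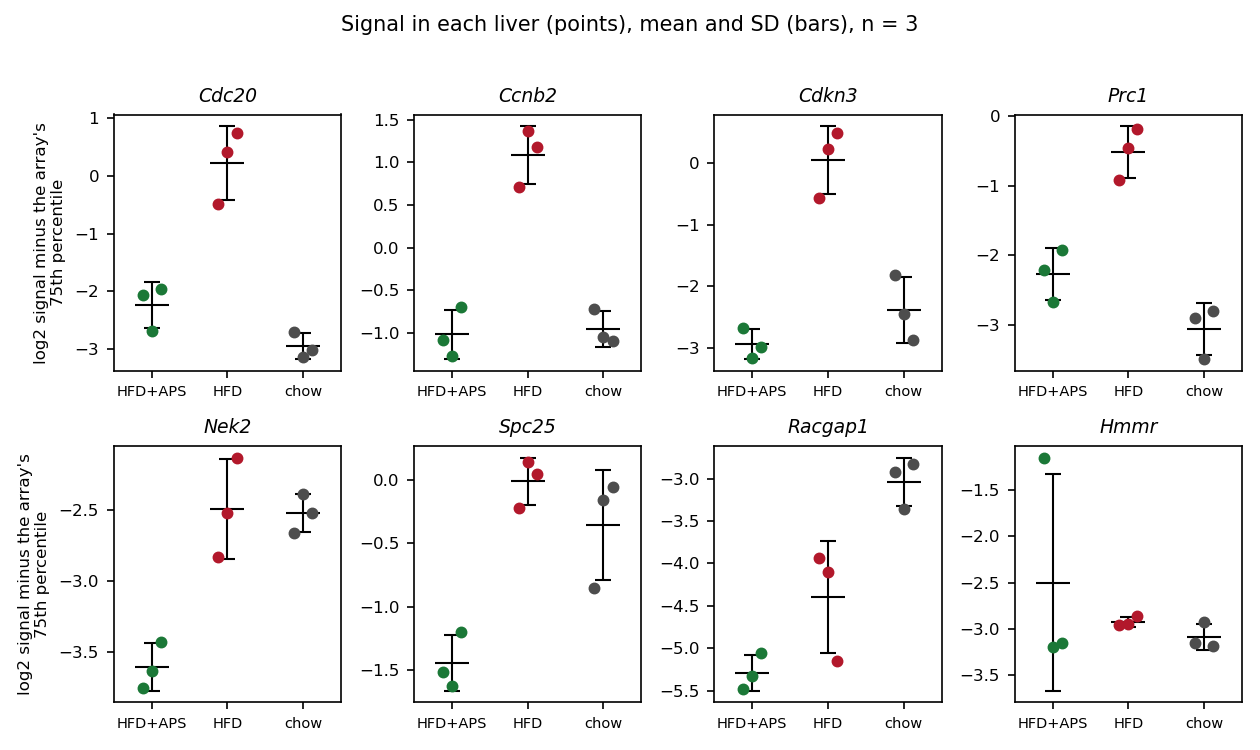
Log2 signal minus the array's 75th percentile in each liver (points) for Cdc20, Ccnb2, Cdkn3, Prc1, Nek2, Spc25, Racgap1 and Hmmr in HFD+APS, HFD and chow, with mean and SD (bars, n = 3). The first 4 are high in HFD, Nek2 and Spc25 are low in HFD+APS, Racgap1 is high in chow, and Hmmr is high in HFD+APS 1.

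Set against chow, HFD+APS livers had 0 members called higher and 3 lower, where 0.964% of all features were called higher and 2.52% lower. The median of the 36 was 0.17, against -0.03 for all features. Groups did not overlap for 7 members with HFD+APS higher and 4 with HFD+APS lower, where 12.7% and 18.2% of all features did so. At an unadjusted p under 0.05, 3 members were higher and 4 lower by limma, where 9.87% and 15.3% of all features were. Over the 20 members that rose in HFD and were above background on at least 1 chow array, the difference between HFD+APS and chow ran from -0.56 (Cdkn3) to 0.79 (Prc1), and for 18 of them the 95% interval held 0. The exceptions were Prc1 (0.16 to 1.43) and Mad2l1 (0.09 to 0.82). Mad2l1 was called higher in HFD+APS under quantile normalization (0.62, adjusted p = 0.0438) and in the authors' deposited values (0.64, adjusted p = 0.0425), by limma. The intervals are wide, from -1.33 to 1.56 over the 20, so they do not show equal levels. Cdc20, for example, was at -2.24 ± 0.40 in HFD+APS and -2.95 ± 0.22 in chow, with an interval of -0.04 to 1.46 and no overlap between the livers.

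The 3 members called lower were Nek2, Spc25 and Racgap1, the last of which passed the filter only through the chow arrays. Nek2 was at -3.76, -3.64 and -3.43 in HFD+APS and at -2.66, -2.39 and -2.52 in chow (-1.09 ± 0.18, adjusted p = 0.0285, but 0.114 at most when 1 array was left out). Spc25 was at -1.51, -1.62 and -1.20 in HFD+APS and at -0.85, -0.16 and -0.06 in chow (-1.08 ± 0.22, adjusted p = 0.042, but 0.144 at most when 1 array was left out). Nek2 and Spc25 had HFD+APS livers below all HFD livers and all chow livers. Racgap1 was at -5.48, -5.33 and -5.06 in HFD+APS and at -2.92, -3.36 and -2.83 in chow, at least 2.19-fold lower (adjusted p = 0.0153, but 0.0677 at most when 1 array was left out). The count of members called was 0 without chow 2, chow 3, HFD+APS 2 or HFD+APS 3.

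Where a further probe of a member passed the filter, it differed in the same direction as the probe used between HFD and chow, with the exception of Kif11. Both Kif20a probes were above background on all 9 arrays and differed by 2.13 and 2.41 in HFD against chow, and by -2.05 and -1.76 in HFD+APS against HFD. The 2 detected probes of Cdkn3 differed by 2.43 each in HFD against chow, those of Mki67 by 2.14 and 1.95, and those of Stmn1 by 1.21 and 1.05. Cenpe, Nusap1 and Kif11 were less uniform. A Cenpe probe detected on 4 arrays differed by 0.38, against 2.21 for the probe used, and a Nusap1 probe that was not used differed by 1.58, against 0.35. The 2 Kif11 probes that passed differed by 0.45 and -0.56, and Kif11, a motor that pushes spindle poles apart, has no single direction here. Over 21 member probes above background on 0 arrays the median was 0.82 in HFD against chow, beside 0.51 for all such probes, and over the 23 member probes above background on all 9 arrays it was 1.66, beside -0.02.

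Of 80 other mitotic genes 57 were tested, of which 13 rose and 0 fell in HFD against chow (all features: 4.55% higher, 6.39% lower), with a median of 0.26. In HFD+APS against HFD 0 rose and 4 fell (all features: 0.476% higher, 1.03% lower), with a median of -0.31. Pbk, a kinase of mitotic cells, averaged -4.85 ± 0.65 in HFD+APS, -2.72 ± 0.15 in HFD and -5.21 ± 0.04 in chow, where it was above background on no array. It was at least 2.83-fold higher in HFD than in chow (adjusted p = 0.00517, limma) and differed by -2.13 in HFD+APS against HFD (adjusted p = 0.018). Psrc1, a spindle protein, was likewise above background on no chow array, at least 3.5-fold higher in HFD than in chow (adjusted p = 0.00867), and differed by -2.16 in HFD+APS against HFD (adjusted p = 0.0247). Both genes, and Cenpm, another of the 13, passed the filter only because HFD arrays counted towards it. The count of 13 therefore leans towards HFD. The count of 4 falls in HFD+APS, which includes Pbk and Psrc1, leans towards genes high in HFD in the same way. The kinesin Kifc1 differed by 1.75 in HFD against chow (adjusted p = 0.0129) and by -1.5 in HFD+APS against HFD (adjusted p = 0.0439). Trip13, a remodeller of the checkpoint protein Mad2, fell in HFD+APS (-1.58, adjusted p = 0.0305), and Cenpp, of the centromere, rose in HFD (1.27, adjusted p = 0.00686). In HFD+APS against chow 1 of the 57, Gtse1, fell (-0.83, adjusted p = 0.0307, limma), where 2.52% of all features were called lower. Gtse1 was above background on 1 HFD+APS array, 0 HFD arrays and 3 chow arrays, so it passed the filter only because chow arrays counted. None of these calls other than those of Pbk, Psrc1 and Cenpp in HFD held whichever array was left out.

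A further list held 15 tested genes of the anaphase-promoting complex, namely subunits and the activator Fzr1. The complex's partners among the members all rose in HFD. Of the 15, 1 was called, Anapc15 (0.48, adjusted p = 0.0304, but 0.0793 at most when 1 array was left out, limma). The median of the 15 was 0.17, and 4.55% of all features were called higher in HFD. In HFD+APS against HFD 0 of the 15 were called by limma, and the subunit with the smallest p, Anapc15, differed by -0.26 (adjusted p = 0.248). Of 14 genes of the MuvB complex, Myb and the pocket proteins, 1 was called higher in HFD, Rbl1. It was above background on no chow array, passed the filter only with HFD arrays counted, and was at least 2.79-fold higher (adjusted p = 0.0271, but 0.0917 at most when 1 array was left out). The median of the 14 was 0.14, and 0 were called in HFD+APS against HFD (smallest adjusted p = 0.197, limma, for Rbl2). Of 27 tested S-phase genes 5 rose in HFD, with a median of 0.30, among them Mcm5 (1.07), Mcm4 (0.95) and Ccne1 (0.85). Gins2, another of the 5, was above background on no chow array and at least 2.09-fold higher in HFD. It passed the filter only with HFD arrays counted, so the count of 5 leans towards HFD. None of these 4 calls held whichever array was left out (adjusted p 0.0929, 0.0687, 0.0925 and 0.0505 at most for Mcm5, Mcm4, Ccne1 and Gins2, limma). Of the 27, 2 fell in HFD+APS against HFD (all features: 1.03% lower). They were Ccne1, the cyclin of S-phase entry (-1.75, adjusted p = 0.01, and 0.0412 at most when 1 array was left out), and Uhrf1, a DNA methylation factor (-1.27, adjusted p = 0.032, but 0.0908 at most). In HFD+APS against chow 1 of these S-phase genes fell (all features: 2.52% lower). It was Ccne1 (-0.90, adjusted p = 0.042, but 0.128 at most when 1 array was left out). In that comparison 0 genes of the other 2 lists were called by limma (smallest adjusted p = 0.0549, for Rbl2).

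**Figure D5:**
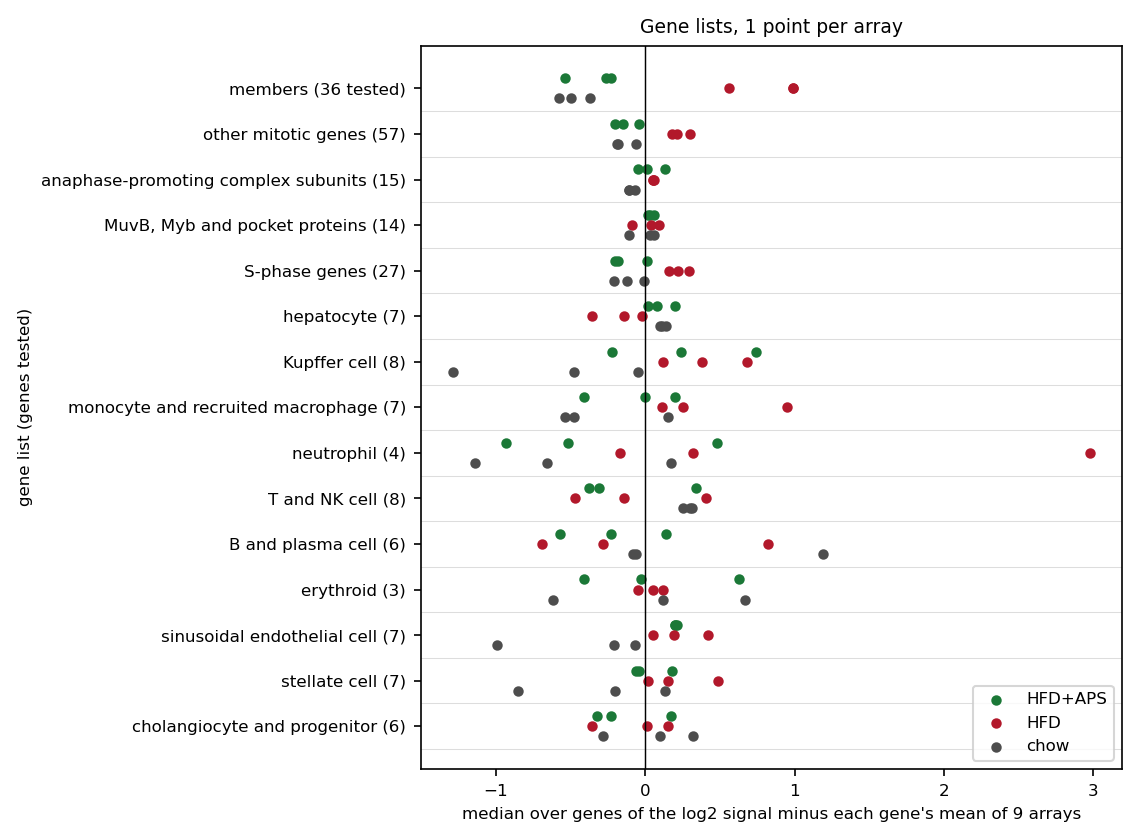
Median over the tested genes of each list of the log2 signal minus the gene's mean of 9 arrays, 1 point per array (HFD+APS, HFD, chow from top to bottom in each row; the number of tested genes is in brackets). The members' medians are -0.54 to -0.23 in HFD+APS, 0.56 to 0.99 in HFD and -0.58 to -0.37 in chow, and the neutrophil markers of HFD 3 stand at 2.98.

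Markers of cells other than hepatocytes also differed between the groups, and their part in the results was not tested. The summed linear level of 7 monocyte and recruited macrophage markers was 40.2 to 67.2 in HFD+APS, 68.5 to 81.9 in HFD and 24.9 to 51.4 in chow, in units of the array's 75th percentile. Of the 7, Ly6c2 and Trem2 rose in HFD relative to chow. The 8 Kupffer cell markers summed to 48.5 and 65.7 in HFD+APS 2 and 3 and to more than any HFD liver in HFD+APS 1, beside 62.5 to 96.8 in HFD and 36.4 to 55.6 in chow, with 0 called by limma in each of the 3 comparisons. By these sums HFD+APS and HFD livers overlapped for the Kupffer markers and did not overlap for the monocyte markers. By the monocyte list's median of log2 signal minus each gene's mean they did overlap, with HFD+APS 1 at 0.20 and HFD 2 at 0.11. Of the 7 monocyte markers 0 were called in HFD+APS against HFD by limma. The 7 stellate cell markers summed to 106 to 125 in HFD+APS, 112 to 133 in HFD and 65.7 to 118 in chow. Dcn, the brightest, gave most of that sum (mean log2 6.77, 6.78 and 6.39). Col1a1 and Col3a1 were called higher in HFD than in chow. In HFD+APS against HFD they differed by -1.69 and -1.49 and were not called (adjusted p = 0.112 and 0.0585, limma). The 7 sinusoidal endothelial markers summed to 62.7 to 71.9 in HFD+APS, 57 to 69 in HFD and 28.9 to 47.7 in chow. Of the endothelial markers Clec4g and Oit3 were called higher in HFD than in chow, and Fcgr2b in HFD+APS than in chow. Of the hepatocyte markers Tat was called lower in HFD than in chow, and Arg1 and Cps1 higher in HFD+APS than in HFD. The 8 T and NK cell markers summed to 0.977 to 1.92 in HFD+APS, 1.06 to 1.97 in HFD and 1.49 to 1.76 in chow, with Cd4 called lower in HFD than in chow, and the 6 B and plasma cell markers to 1.14 to 2.04 in HFD+APS, 1.14 to 3.8 in HFD and 1.48 to 5.29 in chow. Of these marker calls only that of Ly6c2 held whichever array was left out (adjusted p 0.0398 at most, limma). The highest adjusted p of the others was 0.0505 (Col3a1) to 0.143 (Fcgr2b).

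HFD 3 stood apart in some markers. Its 4 tested neutrophil markers (S100a8, S100a9, Retnlg and Mpo) summed to 49.7, beside 7.21 and 4.56 in the other HFD livers, 2.8 to 8.8 in HFD+APS and 1.42 to 6.47 in chow. Ngp, Camp, Ltf and Elane were too dim to test, with Elane above background on 0 arrays. The cholangiocyte and progenitor markers of HFD 3 summed to 47.2, beside 6.86 and 8.46 in the other HFD livers, 5.87 to 6.97 in HFD+APS and 6.22 to 6.44 in chow. Spp1, the brightest of them, averaged 3.62 ± 1.63 (SD) in HFD as log2. Krt19, Krt7, Epcam, Sox9 and Cldn7 averaged -3.17 to -0.69 there. The list's median of log2 signal minus each gene's mean was 0.01 in HFD 3, beside -0.36 and 0.15 in HFD 1 and 2. The list as a whole thus did not stand apart. Without HFD 3 the median difference of the 36 members in HFD against chow was 1.2, with 18 called higher and 1 lower. The adipocyte markers Adipoq, Lep and Plin1 were not tested, and Cfd was at 0.224 to 0.331 in HFD+APS, 21.3, 2.68 and 18.1 in HFD and 5.44, 0.206 and 0.0897 in chow on the linear scale.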

How the data were processed

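Liver RNA of 9 mice was hybridised to 9 Agilent 1-colour mouse arrays. Per the file headers, the deposited processed signal is the intensity of each spot after subtraction of background and spatial detrending by Feature Extraction, with no step between arrays. The version is 10.7.1.1 per the file headers and 10.7 per the submitters' processing notes. The authors also deposited log2 values of all samples (column medians 4.98 to 5), which correlated at 0.9969 to 0.9999 with the log2 processed signal; limma appears in the submitters' processing notes, and how those values were normalised is not given in the sources used here.

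Spots with a non-uniformity or population outlier mark were dropped. Copies of a probe were averaged as log2 values, from which the 75th percentile of the array was taken off (R 4.3.3, data.table version 1.17.8). Of 41174 probes 26478 had a signal that Feature Extraction called well above background on at least 3 arrays, and the brightest such probe stood for its gene (17633 features, 5 missing values). Members were matched by the gene name in the files and other probes to RefSeq names of GRCm38. The 3 groups were compared in 1 limma fit (3.58.1, lmFit and eBayes, 6 residual and 2.2 prior degrees of freedom), 2-sided, adjusted over all features, and the fit was tested on simulated data. The 3 comparisons share their groups and are not independent. The number of arrays limits the precision. No probe was saturated (0 of 41174 on every array).

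"At least N-fold" marks a gene not well above background on any array of the lower group. The bright group's mean was then set against that group's mean of, per array, the higher of the probe's own value and the lowest signal called well above background. That lowest signal was -3.51 to -3.21 on slide 2 and -4.54 to -4.17 on slides 1 and 3. A probe at the floor of every array would thus also give a bound above 1 for HFD against chow. Bounds of genes near the floor in HFD, such as Melk, Nuf2 and Gins2, therefore do not by themselves show a rise. Where the bound came to under 1, no fold is printed. The members, the lists of other genes and markers and the tests were chosen with earlier results of these data known. Named genes were all members, with full statistics for those called, and of each list of other genes the 4 with the smallest p in each comparison. Cenpm was named besides because of the filter. Markers named beside them were those called and some others of the marker lists, chosen after their values were seen. Alternatives covered background correction, normalization, the authors' values, the filter, the choice of probe, slide, replicate number, array weights and leaving out each array. Same-numbered arrays did not deviate together in every pair (correlation of deviations -0.175 to 0.164), so the numbers were not used as pairs.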

Additional observations from a re-analysis of the deposited data

How the results depend on the processing

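With 3 selected livers per group, the call of a single gene was less stable than its direction, and none of the members called reversed under any alternative run. The dimmest probes move with the background of their slide, so differences of members near background are the least certain. In HFD against chow the count of members called was 19 to 25 under normexp background correction, quantile normalization, the authors' values, no filter, the mean of detected probes, slide as a random block, array weights and the replicate block (21), and 16 of 21 with the filter at all 9 arrays. The median log2 difference was 0.63 under normexp, which adds an offset of 50 and so shrinks differences, and 1.66 with the filter at all 9 arrays, where fewer genes were tested. With 1 array left out the count was 13 to 23 (13 without chow 2) and the median 1.11 to 1.36. In HFD+APS against HFD 14 to 23 members were called under most alternatives, but 8 with no filter, where 27339 genes were tested, 10 with the replicate block, and 5 with slide as a fixed block (4 lower, 1 higher), which rests on the 4 arrays of slide 2 and gives the same value as an analysis of those arrays alone with the spread taken from all groups. The median was -0.60 under normexp. With 1 array left out the count was 2 to 16 and the median -1.39 to -1.17. In HFD+APS against chow the count was 1 with no filter, 1 with the filter at all 9 arrays and 1 with slide as a random block, 3 with the replicate block, 3 under quantile normalization (1 higher, 2 lower), 2 under the authors' values (1 higher, 1 lower), and 0 to 2 with 1 array left out, with a median of -0.01 to 0.26. The replicate number as a block, for numbers not shown to pair the livers, moved the count in HFD+APS against HFD by more than 1.5 times and the other counts by less. Counts over all features moved too: 1929 features were called in HFD against chow, but 684 with slide as a random block, 798 with no filter and 3252 with array weights. The cause of these shifts was not tested where no construction is named.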
